A study of Mus musculus with 4 samples.

Results

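The 10 genes described here are a set of mononuclear phagocyte transcripts, chosen by gene name: the complement genes C1qa, C1qb and C1qc, the Fc gamma receptor genes Fcgr1, Fcgr2b and Fcgr3, and Lyz2, Cd68, Csf1r and Mrc1. All 10 were found among the 55487 genes listed for each of 4 libraries, and 9 of them reached 1 TPM, a transcript level scaled for gene length and library total, in at least 2 libraries and were tested. The libraries are labelled as regulatory T cells of mouse skin. The design text describes psoriasiform dermatitis on the shaved back, induced with 60 mg of a cream holding 5% imiquimod every day, and 3 exposures, on alternate days, to narrow-band ultraviolet B (UVB). The labels name no group without the cream. There were 2 non-UVB and 2 UVB libraries, numbered 1 and 2 within each group and called non-UVB 1, non-UVB 2, UVB 1 and UVB 2 below. The sources used here do not give strain, age, sex or the way the cells were isolated. Nor do they say whether each replicate is a separate animal. The p-values therefore measure only how far these libraries vary, perhaps for technical reasons.

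Macrophages and dendritic cells take up particles, dying cells and immune complexes. C1q, the recognition part of the classical complement pathway, is assembled from the products of C1qa, C1qb and C1qc, binds antibody on a target, and is made in tissues largely by macrophages and dendritic cells. Fc gamma receptors bind the constant part of immunoglobulin G on the phagocyte surface, and most of them activate the cell through an adaptor encoded by Fcer1g, whereas the receptor encoded by Fcgr2b inhibits it. Lyz2 encodes lysozyme M, Cd68 a lysosomal and endosomal glycoprotein, Csf1r the receptor for the macrophage growth factors CSF1 and interleukin-34, and Mrc1 the mannose receptor of some tissue macrophages and dendritic cells.

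The 3 C1q genes lie next to each other on the minus strand of chromosome 4 (GRCm38), C1qb at 136880129 to 136886187, C1qc at 136889804 to 136893065 and C1qa at 136895917 to 136898803. Fcgr2b (170958617 to 170976547) and Fcgr3 (171051174 to 171064935) are neighbours on chromosome 1, and Fcgr1 is apart from them on chromosome 3 (96282909 to 96293969). RefSeq promoters of 300 bases on GRCm38.p6, 250 bases before to 50 bases after a start, were used for 8 of the 10 members. None was at hand for C1qa, and Csf1r was left out of the search. The motif AGGAAGT, the core recognised by the myeloid transcription factor PU.1, was searched on both strands after the sequences had been seen. It was in the promoters of 5 of the 8 members, C1qb, C1qc, Fcgr1, Lyz2 and Mrc1, against 10.7% of 27025 genes in the table. The pattern TTCNNNGAA, the core of a STAT element, which reads the same on both strands, was in 1 of the 8, Fcgr1, against 9.55% of genes. These are matches of letters and not shown to be bound sites. Of the 5 promoters with AGGAAGT, the 4 of members that were tested are shown, all from the minus strand and 5′ to 3′. Capitals mark AGGAAGT, read here as its reverse complement ACTTCCT, and, in Fcgr1 alone, TTCNNNGAA. Counted from the start, the printed match begins at -53 in C1qb, -195 in C1qc, -61 in Fcgr1 and -100 in Lyz2.
C1qb promoter, chr4:136886151-136886450: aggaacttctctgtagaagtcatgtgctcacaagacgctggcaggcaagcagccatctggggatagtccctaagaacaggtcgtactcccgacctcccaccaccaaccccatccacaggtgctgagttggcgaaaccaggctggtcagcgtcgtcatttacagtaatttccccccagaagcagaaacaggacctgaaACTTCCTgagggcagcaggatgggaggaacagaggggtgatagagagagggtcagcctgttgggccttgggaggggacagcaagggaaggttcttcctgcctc
C1qc promoter, chr4:136892865-136893164: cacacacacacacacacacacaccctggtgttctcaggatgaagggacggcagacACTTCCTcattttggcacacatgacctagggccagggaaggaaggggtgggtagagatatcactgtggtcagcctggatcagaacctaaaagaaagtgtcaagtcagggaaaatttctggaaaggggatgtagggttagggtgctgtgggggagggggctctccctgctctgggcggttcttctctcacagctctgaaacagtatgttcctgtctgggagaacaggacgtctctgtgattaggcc
Fcgr1 promoter, chr3:96293920-96294219: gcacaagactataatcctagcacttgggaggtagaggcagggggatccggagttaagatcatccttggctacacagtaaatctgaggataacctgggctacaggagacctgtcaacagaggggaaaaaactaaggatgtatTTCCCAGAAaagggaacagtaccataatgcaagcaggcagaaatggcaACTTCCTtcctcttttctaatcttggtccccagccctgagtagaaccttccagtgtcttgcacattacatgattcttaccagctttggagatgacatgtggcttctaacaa
Lyz2 promoter, chr10:117282223-117282522: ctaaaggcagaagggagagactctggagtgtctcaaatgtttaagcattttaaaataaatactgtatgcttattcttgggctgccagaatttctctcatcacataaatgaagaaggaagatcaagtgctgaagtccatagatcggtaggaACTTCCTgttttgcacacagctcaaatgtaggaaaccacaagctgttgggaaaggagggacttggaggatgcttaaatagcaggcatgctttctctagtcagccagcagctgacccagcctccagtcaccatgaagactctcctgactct

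The libraries were not of T cell transcripts alone, and single libraries stood apart in some transcripts. The coverage and FPKM columns imply a depth of 23800000 to 42000000 reads of 100 bp. The T cell list of 12 genes summed to between 6580 and 9448 TPM. Foxp3, the transcription factor that defines regulatory T cells, was listed at 0 TPM in non-UVB 1 and lay between 3.49 and 19.4 TPM elsewhere. Haemoglobin genes held 11.7% of TPM in non-UVB 1 and at most 0.441% in the others. Transcripts near 0 in a single library also occurred outside the phagocyte genes. Of 1092 genes with at least 100 TPM in the other 3 libraries, 26 (2.38%) were under 2 TPM in non-UVB 2, among them C1qa and C1qc. The same held for 11 of 1073 in non-UVB 1, 2 of 1000 in UVB 1 and 0 of 1019 in UVB 2.

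All 9 tested members were lowest in non-UVB 2, against 25.6% of all tested genes, and 8 of them, all but Csf1r, were highest in UVB 1. Together the 10 members summed to 4096 TPM in non-UVB 1, 8888 TPM in UVB 1, 426 TPM in non-UVB 2 and 3406 TPM in UVB 2. Their share of all TPM was 0.410%, 0.889%, 0.0426% and 0.341% in that order. The sum was higher with UVB within each number, but the groups overlapped, since UVB 2 lay below non-UVB 1. In bulk RNA, fewer cells of a type and less RNA per cell cannot be told apart.

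**Figure D1:**
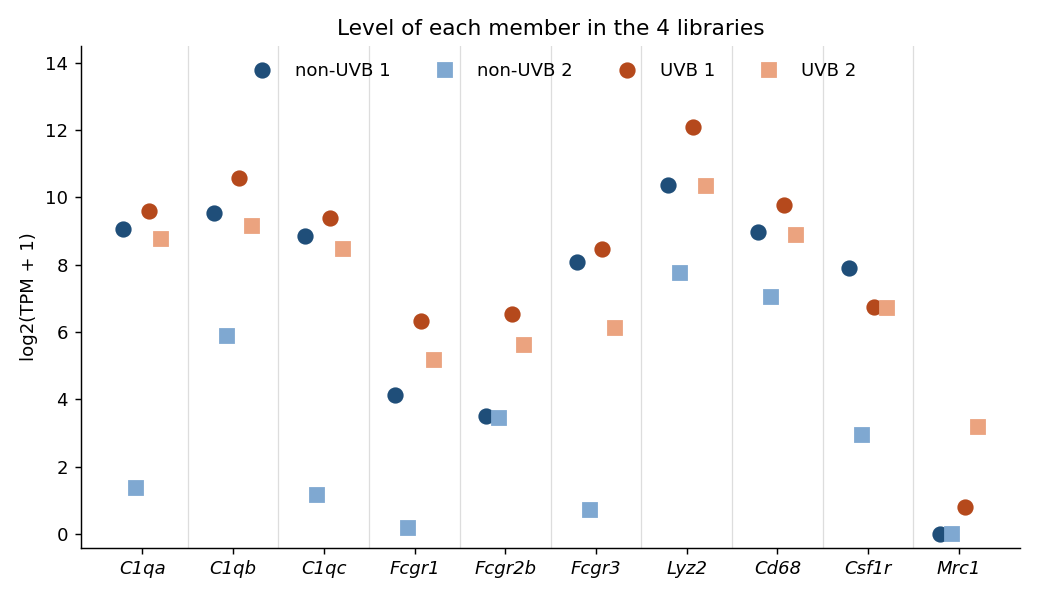
Level of each member as log2(TPM + 1), with 1 point per library: circles stand for number 1, squares for number 2, blue for non-UVB and orange for UVB. The non-UVB 2 square is the lowest point for 9 members, at 1.58 TPM for C1qa against 434 to 773 TPM in the other 3 libraries, and the UVB and non-UVB points separate for Fcgr1, Fcgr2b and Mrc1.

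The C1q genes were among the more abundant transcripts in 3 libraries and low in the fourth. C1qa was at 536 TPM in non-UVB 1, 773 TPM in UVB 1, 1.58 TPM in non-UVB 2 and 434 TPM in UVB 2. C1qb was at 737, 1538, 58.5 and 568 TPM in the same order. C1qc was at 459, 677, 1.25 and 356 TPM. Each C1q gene had the same order of libraries, UVB 1, non-UVB 1, UVB 2 and non-UVB 2 from high to low, so UVB and non-UVB libraries overlapped and libraries numbered 1 and 2 did not. C1qb ranked 64th among all genes in UVB 1 and 3051st in non-UVB 2. Few reads lay behind the low values. Bases of C1qa and C1qc were covered by a mean of 2.71 and 1.33 reads in non-UVB 2, against 709 and 362 in UVB 2.

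Within a library, C1qc and C1qa kept close to a fixed proportion while C1qb did not. The ratio of C1qc to C1qa in TPM was 0.857 in non-UVB 1, 0.875 in UVB 1, 0.789 in non-UVB 2 and 0.820 in UVB 2. The ratio of C1qb to C1qa was 1.37, 1.99, 37.0 and 1.31. In non-UVB 2, C1qa and C1qc were both near 0 with a ratio close to that elsewhere, while C1qb, whose product forms disulfide-linked dimers with the A chain, was covered by a mean of 100 reads per base. These ratios were added after the values had been seen and are descriptions.

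The Fc gamma receptor genes differed from each other more than the C1q genes did. Fcgr1, which encodes the high-affinity receptor CD64, was at 16.5 TPM in non-UVB 1, 80.3 TPM in UVB 1, 0.134 TPM in non-UVB 2 and 35.0 TPM in UVB 2. Fcgr2b, the inhibitory receptor gene, was at 10.3, 92.5, 9.95 and 48.2 TPM in the same order. Both had higher values in each UVB library than in either non-UVB library. Fcgr3, the gene of an activating low-affinity receptor, was at 273, 355, 0.634 and 68.9 TPM, with overlapping groups and the libraries numbered 1 above those numbered 2. Of the 9 tested members, Fcgr2b was the one whose non-UVB libraries were nearly alike, with a mean of 10.2 ± 0.279 TPM without UVB and 70.3 ± 31.3 TPM with it (SD, n = 2 per group).

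The balance of inhibitory to activating receptor transcripts spanned a wide range. Of 4 ratios compared between groups by a permutation test, none can reach 0.05 at this size, before or after adjustment. The ratio of Fcgr2b to Fcgr3 was 0.0379 in non-UVB 1, 0.261 in UVB 1, 15.7 in non-UVB 2 and 0.700 in UVB 2. It lay higher in both libraries numbered 2 than in both numbered 1, by 5.06 on the log2 scale, and the UVB groups overlapped (exact two-sided permutation p = 0.333 by number and 1.0 by UVB, where 0.333 is the smallest p that 2 against 2 libraries allow). Its log2 difference with UVB was -0.85 and turned to 3.49 without non-UVB 2. The ratio of Fcgr1 to Fcgr3, added after the values were seen, was 0.0605 and 0.211 in non-UVB 1 and 2 and 0.226 and 0.508 in UVB 1 and 2. The UVB groups did not overlap, by a narrow margin. In non-UVB 2 both ratios divide by Fcgr3 at 0.634 TPM, with a mean cover of 0.844 reads per base. Fcgr1 had 0.230 there. The ratios of 15.7 and 0.211 thus rest on few reads and are imprecise. Fcgr2b and Fcgr3 share sequence: 44 of 1733 windows of 100 bases in annotated Fcgr3 transcripts (2.54%) also occur in Fcgr2b, so reads there could be given to either gene. Markers of B cells, which also carry the Fcgr2b receptor, were checked: Ms4a1, Cd79a and Pax5 were listed at 0 in all 4 libraries, Cd79b was at 18.5 to 61.9 TPM, and the list's sum of 19.1 to 316 TPM was mostly Blk in the libraries numbered 1.

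Lyz2 and Cd68, the lysosomal members, were detected in every library, and of the 9 tested members Cd68 varied least in proportion, followed by Fcgr2b and Lyz2. Lyz2 was at 1325 TPM in non-UVB 1, 4391 TPM in UVB 1, 216 TPM in non-UVB 2 and 1309 TPM in UVB 2, and was the 10th most abundant gene of UVB 1. Cd68 was at 498, 874, 131 and 475 TPM in the same order. Both genes were higher with UVB within each number, and in both non-UVB 1 lay just above UVB 2, so that the UVB groups overlapped by a small margin. On the FPKM scale Lyz2 was at 879 in non-UVB 1 and 897 in UVB 2, so its order there turned and the UVB groups separated. Highest and lowest library differed by 20.3 times for Lyz2 and 6.66 times for Cd68, against 489 times for C1qa and 543 times for C1qc. The neighbour Lyz1, a close copy of Lyz2, was at 19.0, 184, 2.71 and 12 TPM, and 24 of 1217 windows of 100 bases in Lyz2 (1.97%) also occur in it.

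The ratio of Lyz2 to Cd68 was 2.66 in non-UVB 1, 5.03 in UVB 1, 1.65 in non-UVB 2 and 2.76 in UVB 2, above both non-UVB values in each UVB library (exact two-sided permutation p = 0.333, the smallest possible). The difference was 0.83 on the log2 scale and 0.40 without UVB 1. The summed C1q level stood at 1.31 times that of Lyz2 in non-UVB 1, 0.681 in UVB 1, 0.284 in non-UVB 2 and 1.04 in UVB 2. This ratio overlapped between the groups, and its log2 difference with UVB was 0.47, or -0.64 without non-UVB 2 (exact two-sided permutation p = 1.0).

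The surface receptors Csf1r and Mrc1 did not follow the other members. Csf1r was at 240 TPM in non-UVB 1, 107 TPM in UVB 1, 6.76 TPM in non-UVB 2 and 104 TPM in UVB 2. It was the 1 member with a lower value in UVB 1 than in non-UVB 1, and its UVB libraries were alike, at 105 ± 1.80 TPM (SD, n = 2), between 2 non-UVB libraries that lay far apart. Its mean TPM was lower with UVB, 0.853 times that of the non-UVB libraries at 124 ± 165 TPM, although its mean log2 value was higher. The C1q sum was accordingly 7.21 and 9.07 times Csf1r in non-UVB 1 and 2 and 28.0 and 13.1 times in UVB 1 and 2, without overlap and by 1.24 on the log2 scale (exact two-sided permutation p = 0.333), or 0.69 without UVB 1 and 1.79 without UVB 2. Csf1r overlaps Hmgxb3 on the opposite strand, which was at 9.75, 10.3, 0.106 and 2.98 TPM in the same order of libraries. Of Csf1r windows of 100 bases, 13.5% also occur there. No source used here says whether the libraries keep strand, so a part of the reads could belong to either gene. Mrc1 was listed at 0 TPM in both non-UVB libraries and was at 0.744 TPM in UVB 1 and 8.03 TPM in UVB 2, which had a mean cover of 1.66 and 11.1 reads per base. It reached 1 TPM in 1 library only and was not tested.

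**Figure D2:**
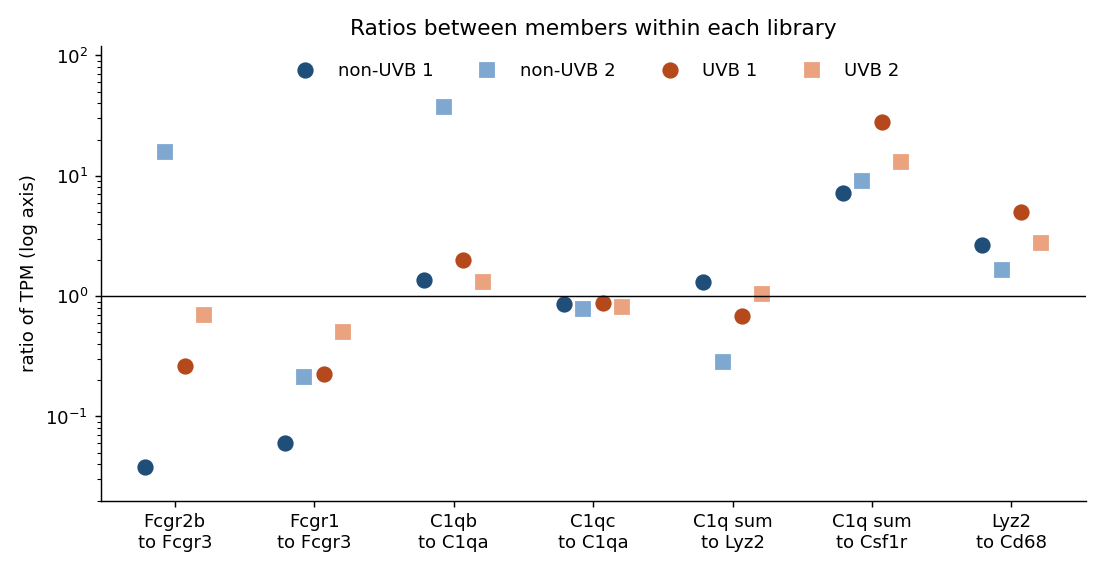
Ratio of TPM between members within each library, on a log axis, with the symbols of the plot of levels. C1qc to C1qa lies between 0.789 and 0.875 in all 4 libraries, while C1qb to C1qa reaches 37.0 and Fcgr2b to Fcgr3 reaches 15.7 in non-UVB 2. In that library the divisors C1qa and Fcgr3 were at 1.58 and 0.634 TPM, from few reads.

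The comparison of UVB with non-UVB libraries asked whether these transcripts differed with irradiation. By limma on log2(TPM + 1) with p-values adjusted by Benjamini-Hochberg, 0 of 10286 genes (0%) were under 0.05, and 1167 had an unadjusted p under 0.05, so no member passed. Of the members 1, Fcgr2b, had an unadjusted p under 0.05 with UVB higher, against 9.97% of all genes, and 0 had one after quantile normalization or median scaling. All 9 tested members had a higher mean log2 value with UVB, against 61% of all tested genes, and 8 were higher within both numbers, against 34%. None of the 9 was lower within both numbers, where the background was 17.7%. Fcgr1 and Fcgr2b, 2 of 9, did not overlap between groups with UVB higher, and the background was 23.2%. None was without overlap and lower with UVB, against 9.71%. The share of members without overlap was thus close to that of all genes. A filter that needs 1 TPM in 2 libraries drops a gene like Mrc1, so these counts cover 9 members.

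Fcgr2b had a difference of 2.60 ± 0.83 log2 (SE, n = 2 per group, limma adjusted p = 0.369). It was 3.04 higher with UVB within number 1 and 2.17 higher within number 2. Fcgr1 differed by 3.60 ± 1.76 (adjusted p = 0.690), with 2.22 and 4.99 within the numbers. Lyz2 differed by 2.16 ± 1.16 (adjusted p = 0.751) and Cd68 by 1.33 ± 0.82 (adjusted p = 0.847). Of these 4 members, each was higher with UVB in both numbers.

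C1qa, C1qc and Fcgr3 had differences that rested mostly on number 2. That of C1qb did so less, and all 4 genes were higher with UVB in both numbers. C1qa differed by 3.96 ± 2.80 log2, with 0.53 within number 1 and 7.40 within number 2 (limma adjusted p = 0.912). C1qb stood at 2.16 ± 1.43, with 1.06 and 3.26, and C1qc at 3.94 ± 2.80, with 0.56 and 7.31. Fcgr3 stood at 2.90 ± 2.83, with 0.38 and 5.42. Among libraries numbered 1 these 4 genes were thus 1.44, 2.09, 1.47 and 1.30 times as high with UVB in TPM. Csf1r had opposite signs, with -1.16 in number 1 and 3.76 in number 2, and a difference of 1.30 ± 1.86. A difference between the numbers in the response to UVB was not tested, since each number holds 1 library per group.

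The median difference of the 9 members was 2.60 log2, against 0.26 for all tested genes. The median of all genes was -0.19 after quantile normalization and -0.27 after median scaling, so counts of genes with a higher mean depend on the scaling, while all 9 members had a higher mean under both. Within the numbers it was 0.81 against 0.27 in number 1 and 3.76 against 0.16 in number 2. Non-UVB 2 carried much of this. Without it the median of the members was 0.34, or -0.02 relative to the median of all genes, and Fcgr3 and Csf1r turned to -0.80 and -1.18. Without non-UVB 1 the median was 3.98, without UVB 1 it was 1.72 and without UVB 2 it was 3.07. With 1 library left in a group, more genes do not overlap: the count of members with UVB higher was 9 without non-UVB 1, against 41.6% of all genes, and 8 without UVB 2, against 35.4%. It was 2 without non-UVB 2, against 46.7%, and 2 without UVB 1, against 37.8%.

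**Figure D3:**
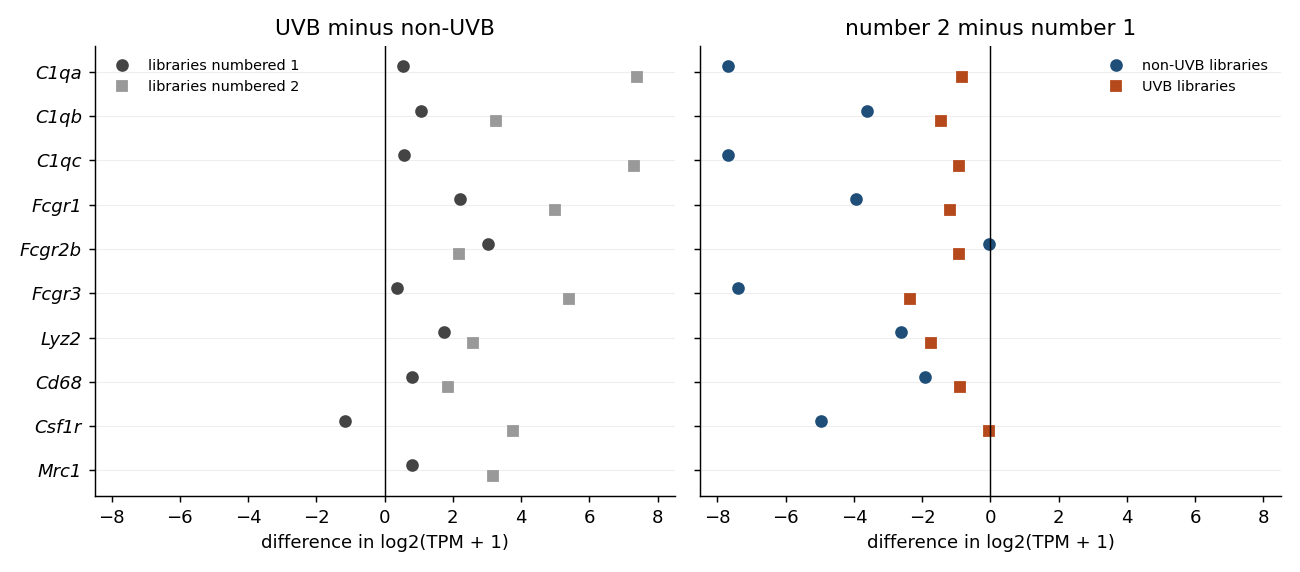
Differences of log2(TPM + 1) for each member: left, UVB minus non-UVB within number 1 (circles) and number 2 (squares), and right, number 2 minus number 1 within the non-UVB (circles) and UVB (squares) libraries. On the left all points but Csf1r in number 1 lie above 0, and on the right, where Mrc1 is not plotted because it was not tested, all lie below 0.

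The libraries numbered 2 had lower levels than those numbered 1 for each of the 9 tested members within both groups, against 24.4% of all tested genes, and 46.6% of genes had a lower mean in number 2. For 8 of the 9 this came with higher values with UVB in both numbers, which 8.75% of genes showed. No source used here says what the number stands for. With number and group in 1 limma model, 0 of 10286 genes (0%) had an adjusted p under 0.05 for number and 1155 had an unadjusted p under 0.05. Of the members 2, C1qb and Lyz2, had such a p and were lower in number 2, against 6.23% of all genes, and 0 had one without the intensity trend. Another count is of overlap: 7 members did not overlap between numbers, all lower in number 2, where the background was 18.5%, and the exceptions were Fcgr1 and Fcgr2b. On the FPKM scale the count was 5, since Lyz2 and Csf1r then overlapped.

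Lyz2 had the smallest p for number, at -2.18 ± 0.33 log2 (SE, 2 libraries per number, limma adjusted p = 0.387), and it was lower in number 2 by 2.61 without UVB and by 1.75 with it. Fcgr3 stood at -4.87 ± 1.62, C1qb at -2.53 ± 0.71, Cd68 at -1.40 ± 0.43 and Csf1r at -2.50 ± 1.57. Fcgr2b stood at -0.49 ± 0.86, with values of 10.3 and 9.95 TPM in the non-UVB pair. The median of the members was -2.53 log2, against 0.10 for all genes. It was -3.95 between the non-UVB libraries and -0.93 between the UVB libraries, against 0.15 and 0.03 for all genes. Fcgr2b went the other way, with -0.05 without UVB and -0.93 with it.

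Of the members, 6 of 9 had the order UVB 1, non-UVB 1, UVB 2, non-UVB 2 from high to low, namely the 3 C1q genes, Fcgr3, Lyz2 and Cd68, against 4.78% of all tested genes. The neighbouring levels non-UVB 1 and UVB 2 were the closest for Lyz2, at 1325 and 1309 TPM, and Cd68, at 498 and 475 TPM. By Euclidean distance between centred log2(TPM + 1) values over the 4 libraries, the genes most like the mean C1q profile among 6405 candidates were Zyx, Pim2, Pf4, Selenos and Zfp414, at distances of 0.32 to 0.41. Zyx, which encodes the focal adhesion protein zyxin, was at 160, 252, 0.517 and 104 TPM, listed as for the C1q genes, and Pf4, a chemokine gene of platelets and some macrophages, was at 224, 330, 1.41 and 124 TPM. Within the distance of C1qb itself, 2.27, lay 471 of the candidates.

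Other macrophage genes differed in their pattern over the libraries. Of 20 genes of macrophage identity, 13 were tested, and 0 passed limma's adjusted p. A higher mean with UVB was seen in 9, a share near the 61% of all genes. Within both numbers 6 were higher, against 34%, and none was lower, against 17.7%. Adgre1, which encodes the macrophage antigen F4/80, was at 219 TPM in non-UVB 1, 336 TPM in UVB 1, 0.657 TPM in non-UVB 2 and 95.2 TPM in UVB 2, the same order as C1q. Trem2, a lipid-sensing receptor gene, was at 90.9 and 52.3 TPM in the libraries numbered 1, listed at 0 in non-UVB 2 and at 0.0605 TPM in UVB 2. Apoe, the most abundant gene of the list, was at 666, 1147, 700 and 1095 TPM and so held its level in non-UVB 2. Spi1, which encodes PU.1, was at 172, 199, 52.0 and 107 TPM, and Cd14, a co-receptor for bacterial lipopolysaccharide, was at 764, 649, 235 and 435 TPM, both lowest in non-UVB 2. Highest and lowest library differed by 1.72 times for Apoe and 512 times for Adgre1.

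Apoe had the smallest p of that list on the higher side, at 0.71 ± 0.29 log2 (limma adjusted p = 0.533). The list's median was 0.71 against 0.26 for all genes, and -1.30 against 0.10 by number. Defining genes of resident and lymphoid tissue macrophages, Cd163, Marco, Lyve1, Folr2, Timd4 and Siglec1, were listed at 0 in all 4 libraries. The monocyte list summed to 479 to 1279 TPM. Its most abundant gene was Nr4a1, an early response gene that activated T cells also express. Ly6c2, a defining gene, was between 0.0249 and 3.79 TPM. Other genes of the list were higher. Ccr2 ranged from 181 to 355 TPM and was highest in non-UVB 1. Chil3 had the same order of libraries as C1q, from 117 TPM at the highest to 0.501 TPM in non-UVB 2. Plac8 had the list's smallest p on the higher side (limma adjusted p = 0.410). It was listed at 0 without UVB and at 24.3 and 3.03 TPM with it, so the filter fixed its direction.

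Beyond C1q, few soluble complement genes were detected. Of 22 complement genes 7 were tested, and 0 passed limma's adjusted p. All 7 had a higher mean with UVB, against 61% of all genes, and 6 were higher within both numbers, against 34%. C5ar1 and Cfb passed the filter of 1 TPM in 2 libraries only through their UVB values, so their higher means were fixed by it. The shares of all genes include such genes too. C1ra and C1s1, the proteases that C1q activates, and C2, C4b, Cfd, Cfi, Serping1 and Vsig4 were listed at 0 in all libraries. Cfp, which encodes properdin, was at 236 TPM in non-UVB 1, 357 TPM in UVB 1, 28.6 TPM in non-UVB 2 and 114 TPM in UVB 2. Receptors for complement fragments were present: C3ar1 was at 98.4, 149, 0.285 and 40.7 TPM, and C5ar1 at 0.0367, 152, 0.0807 and 58.5 TPM in the same order. C5ar1 was near 0 in both non-UVB libraries, and it had the smallest p of the list at 6.49 ± 1.17 log2 (limma adjusted p = 0.223). Cfb, a protease of the alternative pathway, was listed at 0 without UVB and at 52.4 and 38.4 TPM with it. The most abundant gene of the list, Calr, encodes calreticulin, a chaperone that also binds C1q, and was at 583, 636, 13.4 and 339 TPM.

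Genes that work with the Fc receptors were less alike. Of 16 genes 9 were tested, 8 had a higher mean with UVB, against 61% of all genes, and 0 passed. Within both numbers 4 were higher, against 34%, and 1 was lower, against 17.7%. Fcer1g, the shared adaptor, was at 1852 TPM in non-UVB 1, 3659 TPM in UVB 1, 1056 TPM in non-UVB 2 and 1265 TPM in UVB 2, so it stayed above 1000 TPM in the library where Fcgr3 was at 0.634 TPM. Fcgr4, a further activating receptor, was at 49.6, 222, 15.4 and 51.6 TPM, with each UVB library above both non-UVB libraries. Plcg2, a phospholipase downstream of these receptors, had the smallest p on the higher side, at 2.82 ± 0.83 log2 (limma adjusted p = 0.321), with 0 TPM listed in both non-UVB libraries and 12.2 and 2.77 TPM with UVB. Plcg2 thus passed the filter only through its UVB values, which fixed its direction in these counts. Syk, the kinase that activating receptors recruit, stood on the lower side at -2.14 ± 1.43, with 39.7, 18.4, 23.8 and 1.67 TPM. Inpp5d, the phosphatase SHIP1 that Fcgr2b recruits, was at 55.2, 52.3, 12.4 and 17.0 TPM. The mast cell genes Fcer1a and Ms4a2, 2 subunits of the IgE receptor, were listed at 0 in all libraries.

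A further list held genes around Csf1r, and also those of GM-CSF and its receptor, which is separate from Csf1r. The ligand genes of Csf1r were low, with Csf1 at most at 0.142 TPM and Il34 listed at 0 throughout. Of 12 genes 9 were tested, 6 with a higher mean and 3 higher within both numbers, shares near the 61% and 34% of all genes. Runx1, a blood cell transcription factor gene, was the 1 lower within both, and 0 passed limma's adjusted p. Cebpb, a myeloid and inflammatory transcription factor gene and the most abundant of the list, was nearly level, at 560, 700, 584 and 605 TPM. Csf2ra, a subunit of the receptor for GM-CSF, was at 27.5, 139, 0.238 and 86.3 TPM. Csf2rb, the shared signalling subunit, had the smallest p on the higher side, at 2.92 ± 1.25 log2 (adjusted p = 0.587), and Grb2 on the lower side stood at -0.31 ± 0.61. Csf2rb was at 0.000848, 23.4, 0.302 and 2.06 TPM, so it passed the filter only through its UVB values, which fixed its direction. Lysosomal genes were tested in full. Of 10, 9 had a higher mean with UVB, against 61% of all genes, 6 within both numbers, against 34%, and 0 passed. Ctss, the cathepsin that processes the MHC class II invariant chain, was the most abundant at 855, 1623, 445 and 981 TPM and differed by 1.03 ± 0.51 (adjusted p = 0.698), while Ctsb stood at -0.06 ± 0.76.

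Markers of other cells also differed between the libraries, and their part in the values of the members was not tested. The macrophage identity list summed to 2426 TPM in non-UVB 1, 3137 TPM in UVB 1, 1183 TPM in non-UVB 2 and 2120 TPM in UVB 2, so it followed the order of the members over a smaller range. The T cell list went the other way by UVB, with sums of 7662, 7115, 9448 and 6580 TPM. Of its 12 genes 5 were lower and 0 higher with UVB within both numbers, against 17.7% and 34% of all genes. In 3 the groups did not overlap with UVB lower, against 9.71%, and 0 passed limma's adjusted p. Dendritic and Langerhans cell genes, led by Cd74, summed to 5340, 7204, 4118 and 7348 TPM. These sums were higher in each UVB library than in both non-UVB libraries, and most of each was Cd74, H2-Ab1 and H2-Eb1. Of 13 genes 9 were tested, and 6 had a higher mean with UVB, near the 61% of all genes. Within both numbers 4 were higher, against 34%, and 1 was lower, against 17.7%. Epcam, at 0, 3.645, 0 and 126.6 TPM, passed the filter only through its UVB values, which fixed its direction in these counts. Ccr7 was at 41.0, 54.8, 814 and 208 TPM, and Zbtb46 at 0.0272, 0, 88.9 and 10.3 TPM, both higher in number 2. Other genes of the list differed from this. Batf3 was at 82.8, 72.8, 15.4 and 22.3 TPM, and Xcr1 was highest in non-UVB 1 at 34.1 TPM. Lower values in number 2 within both groups were seen in 2 of the 9, against 24.4% of all genes. Cd207, the Langerhans cell lectin, was at 147, 113, 110 and 262 TPM. Keratinocyte genes, led by Krt14, had sums of 144, 308, 2759 and 2133 TPM, and neutrophil genes, led by S100a8, had sums of 447, 363, 3255 and 2203 TPM in the same order. These lists were thus higher where the members were lower by number. In the neutrophil list Retnlg, Ly6g, Ngp and Camp were listed at 0 in all libraries. Csf3r was at 0, 19.2, 21.5 and 11.5 TPM, and Cxcr2 at 19.7 TPM in non-UVB 1. Of the mast cell list Mcpt4, Cma1, Tpsb2 and Gata2 were at 0 in all libraries. The list summed to 5.63 to 34.6 TPM, with Kit at 34.4 TPM in UVB 2 and Hdc at 11.4, 5.62, 20.4 and 0.172 TPM. Fibroblast genes summed to at most 55.7 TPM, nearly all of it Lum.

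**Figure D4:**
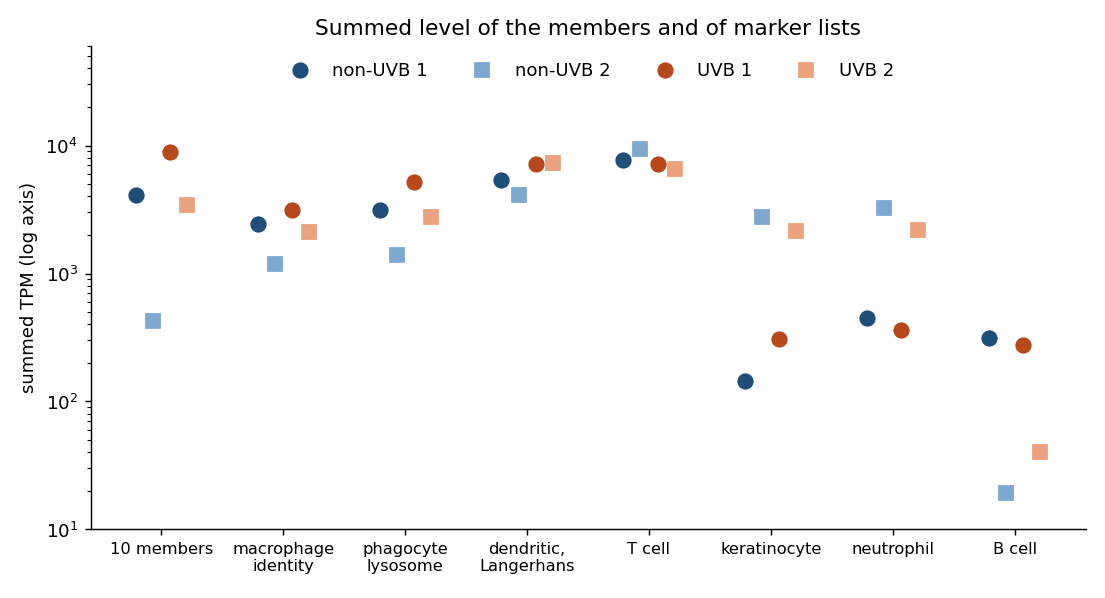
Summed TPM of the 10 members and of 7 marker lists in each library, on a log axis, with the symbols of the plot of levels. The members range from 426 to 8888 TPM and the macrophage identity list from 1183 to 3137 TPM, both lowest in non-UVB 2, while keratinocyte and neutrophil sums are higher in the libraries numbered 2.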

How the data were processed

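RNA of 4 libraries was sequenced as single-end reads of 100 bp after ultra-low-input SMARTer preparation, per the labels' protocols. HISAT2, StringTie and DESeq2 with GRCm38 are named in the submitters' processing notes, with no role given. The authors deposited 1 gene table per library, and per the file headers it holds coverage (mean read depth per base, a signal not scaled to library size), FPKM and TPM. Rows of a gene ID were summed. The highest ratio of coverage to FPKM gave the bases behind each library. Reads per gene were not recovered, so no counting interval is given and the precision rests on 2 libraries per group.

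Genes reaching 1 TPM in 2 or more libraries were tested on log2(TPM + 1) with limma 3.58.1 in R 4.3.3, with an intensity trend and Benjamini-Hochberg adjustment over all 10286 genes at a threshold of 0.05. UVB was tested with group as the only term, and number in a model with group. Differences of low genes are understated on this scale. Ratios within a library were compared by exact permutation tests. The members and lists were chosen with earlier results of these data known. All members were named, and of each list the most abundant gene, the genes with the smallest p in each direction and defining markers at 0. Other list genes named were chosen after their values were seen. Some list genes that this rule names are not reported here. Likeness to C1q was ranked among genes whose mean was 10 TPM or more. Alternatives changed the pseudocount, filter, unit, scaling, trend and replicate block, and left out each library.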

Additional observations from a re-analysis of the deposited data

How the results depend on the processing

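The count of genes at an adjusted p under 0.05 was 0 for UVB under all 13 alternatives and 0 for number under the 9 that gave a test. Without a library, number and group used all degrees of freedom, so that fit gave values and no test. All 9 tested members kept a higher mean log2 value with UVB under each alternative but 1: without non-UVB replicate 2, Fcgr3 ranged down to -0.80 (highest 6.59 over the left-out libraries) and Csf1r to -1.18 (highest 3.78). Leaving out 1 library moved the members' median UVB difference between 0.34 and 3.98 and the number of members without overlap by UVB between 2 and 9, with 35.4% to 46.7% of all genes. It moved the log2 UVB difference of Fcgr2b to Fcgr3 between -5.20 and 3.49 and that of the C1q sum to Lyz2 between -0.64 and 1.57. The cause was not tested. Number differences of all 9 stayed below 0. Quantile normalization and median scaling moved the median of all genes from 0.26 to -0.19 and -0.27, and the members' median relative to it was 2.49 and 2.27 there, against 2.34. FPKM gave 3 members without overlap by UVB. The libraries share only a number: the deviations of same-numbered libraries correlated at 0.165 over 10286 genes, and with the replicate block 0 genes passed for UVB, with 1110 at an unadjusted p under 0.05. With the block the lowest adjusted p of the members was that of Lyz2 (limma, 0.342), and that of Fcgr2b was 0.494. With number as the only term, 1290 genes but 0 members had such a p for number. Few reads lie behind the values near 0 TPM of C1qa, C1qc, Fcgr1 and Fcgr3 in non-UVB 2, with a mean cover of 0.230 to 2.71 reads per base. The depth of that library was 24700000 reads, against 23800000 in UVB 2.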
